A study of Mus musculus with 15 samples.

Results

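Mt2, Trf and Ftl1 encode 3 abundant proteins that bind metals, and they are described here in 15 single cells of mouse inguinal white fat. The 3 genes were chosen from 8446 rows of the deposited expression table by their symbols, after earlier results of these cells had shown them to be high or to vary, so their levels are a description. Mt2 is metallothionein 2, Trf is transferrin and Ftl1 is the ferritin light chain.

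The cells came from adult C57BL/6 mice carrying Prrx1-CreERT and a Tomato reporter, in which a Cre recombinase driven by Prrx1 and activated by tamoxifen switches Tomato on. All mice had been given tamoxifen daily over 3 days, at 2 mg per 30 g of body weight, and no untreated mice were compared. The fat was digested with collagenase II (2 mg/ml, 1 h, 37 °C), strained through 70 µm and 40 µm meshes and sorted on Tomato fluorescence. Cells were picked one at a time under a fluorescence microscope. The cells form 1 group, numbered 1 to 15, and the labels name no animal. They therefore count as 1 sample without replicates, so p-values are not given. Every level is log2(FPKM + 1), where FPKM is a fragment count scaled by transcript length and by library total, and a gene was called detected at 1 FPKM or more. The authors' values were on one common scale in all cells, read depth is unknown, and each cell was measured once, so neighbours in an order of levels cannot be tested against an error.

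Cells handle metals by importing, storing and buffering them. Metallothioneins are small cysteine-rich proteins that bind zinc and copper, and their genes are switched on by zinc through the factor MTF-1, which binds metal response elements, and also by glucocorticoids and stress. Transferrin is the carrier of ferric iron outside cells, made mainly by the liver and also by adipocytes, and it delivers iron through the transferrin receptor. Ferritin stores iron inside cells in a shell of heavy and light chains, and its translation is held back in iron-poor cells by iron regulatory proteins, which bind a stem-loop in the 5′ untranslated region called the iron-responsive element.

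Both kinds of control element could be read from the reference sequence. The Mt2 promoter is shown because Mt2 varied so widely between cells. The line gives the 250 bases before the RefSeq start of Mt2 (GRCm38.p6, chr8:94172368-94172617, plus strand), with metal response elements in capitals (TGCACNC or TGCGCNC, searched on both strands).
Mt2 promoter: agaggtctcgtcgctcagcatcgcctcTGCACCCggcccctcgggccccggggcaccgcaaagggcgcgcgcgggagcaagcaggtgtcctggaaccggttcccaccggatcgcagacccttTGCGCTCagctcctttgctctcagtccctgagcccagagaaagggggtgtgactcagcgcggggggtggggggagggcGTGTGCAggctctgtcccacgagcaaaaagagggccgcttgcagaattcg
The window holds 3 such elements, which start at -223, -128 and -50 from the start site, the last on the reverse strand. Positions count from the RefSeq start, which lies 46 bases before the gene start in GENCODE M21 given below. Among 32851 promoter windows of this length, 21.4% held at least 1 match to either pattern and 1.26% held 3 or more. The same window has an AP-1 match (TGANTCA) starting at -79, inside a match to the antioxidant response element (TGACNNNGC), and 2 matches to the EGR pattern (GCGNGGGNG) starting at -182 and -72, the second of which shares its first bases with the antioxidant element. These patterns, searched on both strands, were held by 6.75%, 10.2% and 10.5% of all windows. The Ftl1 window of the same length held 0 metal response elements.

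The second sequence is the stem-loop of Ftl1, which is the site of its control by iron. It is read from the GENCODE M21 transcript (GRCm38, chr7:45459779-45459806, minus strand), with the loop in capitals.
Ftl1 iron-responsive element: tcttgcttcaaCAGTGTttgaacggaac
The loop has 5 paired bases on each side and lies at bases 79 to 106 of a 253-base 5′ untranslated region. A search for the same loop and pairing in the first 253 bases found it in 69 of 21951 protein-coding transcripts (0.314%), and in neither Mt2 nor Trf.

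Mt2 (ENSMUSG00000031762, chromosome 8, 94172664 to 94173568, plus strand, 3 exons) was detected in 15 of 15 cells (100%, exact Clopper-Pearson 95% interval 78.2% to 100%, which covers counting error only). Cell 2 had a level of 13.69, cell 15 had 13.26, cell 14 had 12.72, cell 12 had 12.56, cell 10 had 12.17 and cell 9 had 12.09. Cells 3 and 4 had 11.75 each, cells 7 and 8 had 11.49 each, cell 1 had 10.23 and cell 6 had 8.07. The lowest levels were 5.90 in cell 5, 5.77 in cell 11 and 5.44 in cell 13. Thus 11 cells lay at 10.23 or above and 3 cells at 5.90 or below, with cell 6 between. In linear terms the lowest level was 42.3 FPKM, the median 3447 FPKM and the highest 13237 FPKM. In cell 2 Mt2 was the highest of all 8446 rows, whereas in the lowest cell it ranked 1815th. The SD over the cells was 2.83 log2 units around a median of 11.75, and of the 100 genes nearest in mean level only 1 had a larger SD (their median SD was 0.890). Genes at such a level seldom varied as much in these cells, which shows in the plot of spread against level.

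Trf (ENSMUSG00000032554, chromosome 9, 103204001 to 103230444, minus strand, 17 exons) was detected in 11 of 15 cells (73.3%, exact interval 44.9% to 92.2%). Cell 3 had a level of 10.96, cell 12 had 10.26, cell 10 had 9.92, cell 4 had 8.19 and cell 15 had 7.28. Of the other 10 cells, cell 7 had 3.87, cell 5 had 3.70, cell 6 had 3.42, cell 14 had 2.33, cell 9 had 1.66, cell 1 had 1.19, cell 2 had 0.96, cell 11 had 0.94, cell 8 had 0.83 and cell 13 had 0.20. The sorted levels had their widest gap, 3.41 units, between 7.28 in cell 15 and 3.87 in cell 7, and the next widest gap was 1.74. The 5 cells above this gap are called high in Trf below. At a bar of 1% of its own highest FPKM, Trf was detected in these 5 cells only. The highest level corresponds to 1985 FPKM, rank 37 in cell 3, against a median of 9.74 FPKM over all cells. The SD was 3.86, and 1 of the 100 genes nearest in mean had a larger one (median SD 2.52). Of the 50-base windows of the longest Trf transcript, 79.8% also occur in Gm20425, an overlapping gene with no row in the table. Reads of this shared part cannot be told apart between the pair.

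Ftl1 (ENSMUSG00000050708, chromosome 7, 45457944 to 45459884, minus strand, 4 exons) was detected in 15 of 15 cells, and it was high everywhere. Cell 15 had a level of 12.17, cell 11 had 12.02, cell 2 had 11.96, cell 8 had 11.58, cell 3 had 11.45, cell 10 had 11.37 and cell 14 had 11.30. Cells 4 and 5 had 11.13 each, cell 6 had 11.05, cell 13 had 10.70, cell 1 had 10.66, cell 7 had 10.44, cell 9 had 10.32 and cell 12 had 9.98. The whole range was 2.19 units (1006 to 4592 FPKM), against 8.26 units for Mt2 and 10.75 for Trf. The SD was 0.644, and 88 of the 100 genes nearest in mean had a larger SD (median SD 0.933). The rank of Ftl1 in a cell ran between 9 and 105 of 8446. This level is uncertain, because 78.9% of the 50-base windows of the Ftl1 transcript occur in transcripts of 15 other genes, above all in the pseudogene Ftl1-ps1 (73.4%), which has no row in the table. No such window of the Mt2 transcript was shared.

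**Figure D1:**
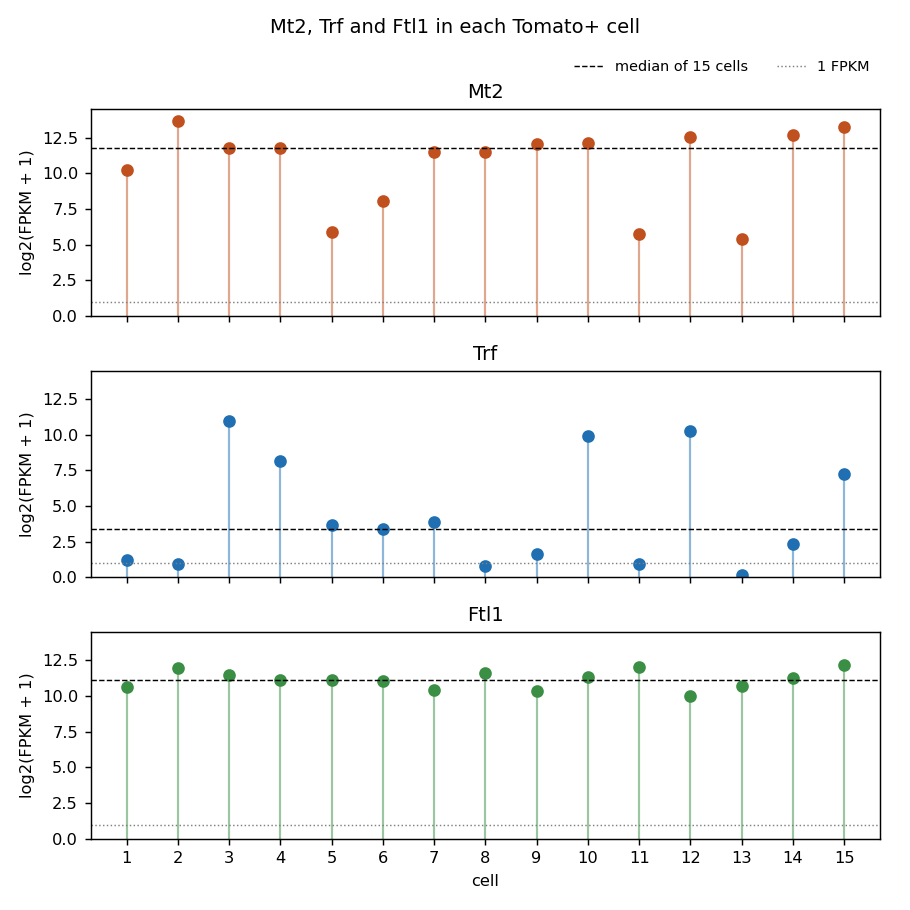
Level of Mt2, Trf and Ftl1, in log2(FPKM + 1), in each of the 15 Tomato+ cells, with 1 point per cell, the median of the 15 cells as a dashed line and the detection threshold of 1 FPKM as a dotted line. Mt2 is between 5.44 and 5.90 in cells 5, 11 and 13, Trf is at 7.28 or more in cells 3, 4, 10, 12 and 15, and Ftl1 stays between 9.98 and 12.17.

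**Figure D2:**
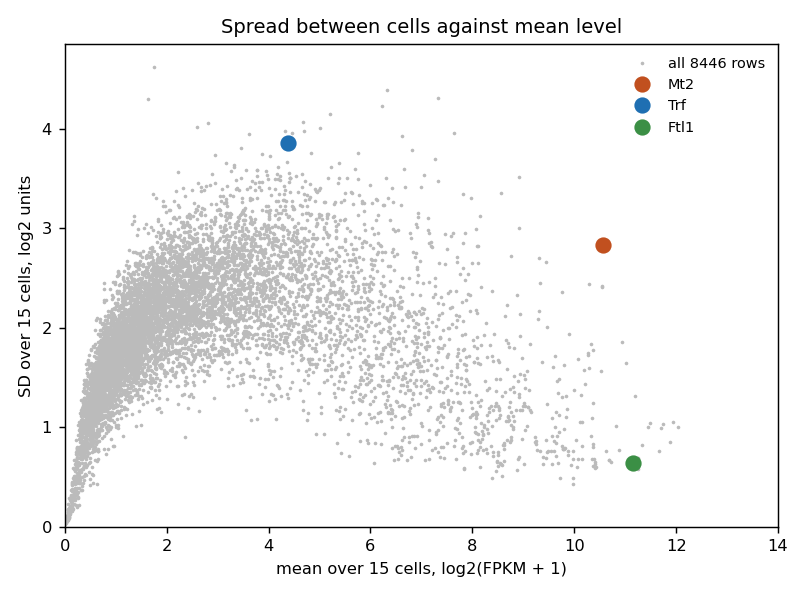
SD over the 15 cells in log2 units against the mean level in log2(FPKM + 1), with 1 grey point per row of the table. Mt2 (SD 2.83) lies far above the genes of like mean, Trf (SD 3.86) lies near the top of the cloud, and Ftl1 (SD 0.644) lies in its lower part.

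The genes were set beside each other within a cell, first on the FPKM scale, which divides by transcript length. Mt2 stood above Ftl1 in 9 of 15 cells, Trf stood above Ftl1 in 1 cell (cell 12), and Trf stood above Mt2 in 0 cells. The libraries were made with a kit that reads the 3′ end, whose yield does not grow with length. For such a kit, division by length lowers the long Trf transcript against the short Mt2 transcript. With the longest transcript's length multiplied back (511 bases for Mt2, 2571 for Trf and 968 for Ftl1), the 3 counts became 6, 2 and 4 cells. The FPKM order within a cell is therefore not read as an order of transcript number. The authors' values were put on one common scale, so multiplying back does not recover counts either.

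The levels of the 3 genes did not follow each other closely over the 15 cells. Mt2 with Trf had a Spearman correlation of 0.41 (Pearson 0.41). This value was 0.12 without cells 5, 11 and 13, the cells lowest in Mt2. Mt2 with Ftl1 had 0.21 (Pearson 0.04), and Trf with Ftl1 had -0.12 (Pearson -0.06), which changed sign when cell 12 was left out. All 5 cells high in Trf had Mt2 between 11.75 and 13.26, but the other 10 cells spanned 5.44 to 13.69 and overlapped them fully. Cell 2, with the most Mt2 of all cells, had Trf at 0.96. All correlations here are over 15 cells that share a library protocol and a common scale and come from an unknown number of mice, and they are given as a description with no p-value.

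Over the 3948 other genes detected in at least 8 cells, 140 had a Spearman correlation of 0.5 or more with Mt2 (3.55%) and 121 had one of -0.5 or less (3.06%). The median over all these genes was 0.02, and the highest was 0.86. These shares are the background for the counts below.

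The genes most like Mt2 were led by Egr1, an immediate early transcription factor. Its correlation was 0.86 (Pearson 0.70), and it stayed between 0.84 and 0.90 when any 1 cell was left out and was 0.85 without the 3 cells lowest in Mt2. Egr1 was picked as the gene most like Mt2 over these same cells, so these values do not test the link. Egr1 was 10.23 in cell 9, 9.52 in cell 15 and 8.87 in cell 2, with a low of 1.39 in cell 11. The other cells lay between 6.03 in cell 13 and 8.60 in cell 10, so that a single cell, cell 11, stood well apart at the low end. Yif1a, which acts in transport between endoplasmic reticulum and Golgi, had 0.86, and Fkbp4, a co-chaperone of steroid hormone receptors, had 0.81. Zfp36, an immediate early gene whose product promotes decay of cytokine mRNAs, had 0.80, with 10.60 in cell 9, 10.44 in cell 15 and 10.23 in cell 14 against 4.49 in cell 11. Cpxm1, a secreted carboxypeptidase-like protein, had 0.78. Hsd11b1, the enzyme that regenerates active glucocorticoid inside cells, had 0.77, with 11.88 in cell 14, 11.17 in cell 15 and 9.69 in cell 2 against 1.84 in cell 11, 1.33 in cell 9 and 0.68 in cell 13. Cell 9 was an exception to this order, since it was high in Mt2 (12.09). Lamtor5, a subunit of the lysosomal Ragulator complex, and Fuca1, a lysosomal fucosidase, had 0.76 each. Of these 8 genes 5 had their lowest level in cell 13 and 3 in cell 11.

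The genes most opposed to Mt2 were Nono, an RNA-binding paraspeckle protein (-0.76), Eif3k, a subunit of a translation initiation factor (-0.75), Jmjd6, a hydroxylase (-0.73), and Klf7, a zinc finger transcription factor (-0.72). Nono reached 8.69 in cell 6 and 7.47 in cell 13 and was 0.74 in cell 2 and 0.77 in cell 14. The lowest Eif3k level was 3.42, in cell 15, and its highest was 8.91, in cell 11, but Eif3k was also high in cell 10 (8.70), where Mt2 was 12.17.

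**Figure D3:**
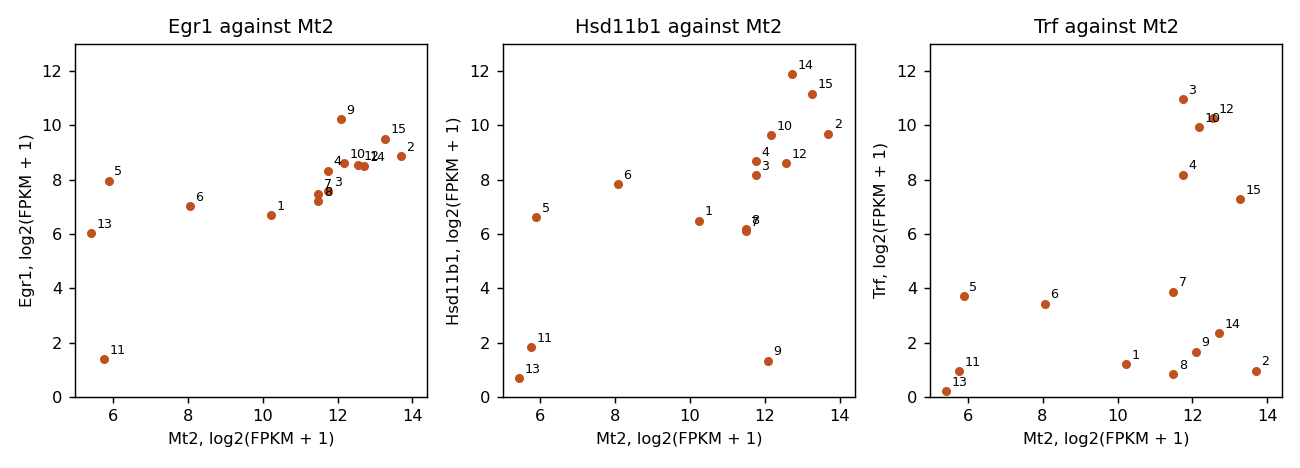
Level of Egr1, Hsd11b1 and Trf against the level of Mt2, all in log2(FPKM + 1), with 1 numbered point per cell. Egr1 climbs with Mt2 (Spearman 0.86), Hsd11b1 does so with cell 9 apart (0.77), and Trf is spread over the whole range where Mt2 is high (0.41).

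Mt2 was next set against the pathways known to act on it. A list of 25 glucocorticoid and stress genes had 24 with a row, all detected in at least 8 cells, and their median correlation with Mt2 was 0.39, against 0.02 over all genes. Of the 24 genes 6 had 0.5 or more (3.55% of all genes did) and none had -0.5 or less. These 6 were Egr1, Fos (0.64), Ier2 (0.60), Jun (0.57), Atf3 (0.57) and Stat3 (0.54), of which the first 5 are immediate early or stress response factors. These 5 belong to 1 kind of response and do not count as independent observations. Egr1 had already been picked as the gene most like Mt2, and the list was chosen with earlier results known, so the count does not test a link. Fos was at 12.27 in cells 14 and 15 and 12.17 in cell 9, against 5.87 in cell 4, where Mt2 was at its median. The other 18 genes include well-known targets of the glucocorticoid receptor, such as Cebpd (0.46), Errfi1 (0.43), Per1 (0.06), Sgk1 (0.05), Tsc22d3 (0.00), Fkbp5 (-0.08) and Klf9 (-0.31), and the immediate early gene Dusp1 (0.28).

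The other metal genes were set against Mt2 in the same way. The lists of metal genes (zinc, iron, heme, iron-sulphur clusters, copper) hold 143 genes, of which 95 had a row and 55 were detected in at least 8 cells. Mt1 and other metallothioneins, the ferritin heavy chain Fth1, the transferrin receptor Tfrc and the iron exporter Slc40a1 are not analysed here. Of the zinc transporters, Slc39a7 had 0.26 with Mt2, Slc39a1 had 0.12, Slc39a6 had -0.01 and Slc39a13 had -0.42. Among 5 genes of iron storage and export, Cp, the copper ferroxidase ceruloplasmin that loads iron onto transferrin, had 0.71 with Mt2. Cp was 9.60 in cell 14, 7.52 in cell 15 and 7.33 in cell 8 against 0.33 in cell 11, 0.18 in cell 13 and 0.14 in cell 1, so cell 1 was low in Cp while holding 10.23 of Mt2. The other metal gene past 0.5 was Hmox1, heme oxygenase 1, which breaks down heme (0.58). None of the 7 iron uptake, 16 iron-sulphur or 13 copper genes reached 0.5 with Mt2, and 3.55% of all genes did, so these counts lie near the background. Of 16 antioxidant genes 1 reached 0.5, Sod2, the mitochondrial superoxide dismutase (0.51). Hif1a, the oxygen-regulated transcription factor, had -0.60, the only one of 12 hypoxia genes past 0.5 in either direction. Of all genes 3.06% had -0.5 or less, and single genes are not read as a result about their lists.

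Markers of other cell types were present in cells at both ends of the Mt2 range. All 5 mural cell markers had a row, and their mean level was 8.72 in cell 5 and 5.83 in cell 13, against 0.39 to 2.37 in the other 13 cells, including cell 11 (0.39). Rgs5 was 10.18 in cell 5 and 6.90 in cell 13, and Higd1b was 10.98 in cell 5 and 10.68 in cell 13. The 2 endothelial markers with a row averaged 5.48 in cell 13 and 3.99 in cell 5, and 0.00 to 2.66 in the others. Csf1r, the only macrophage marker with a row, was 6.39 in cell 2, the cell highest in Mt2, and 0.67 in cell 5, 0.22 in cell 11 and 1.78 in cell 13. It was also 3.81 in cell 1 and 3.35 in cell 7. In the remaining cells it was 0.00 to 0.65, with 0.00 in cells 14 and 15, which were high in Mt2. Over all cells the mural mean had a correlation of -0.01 with Mt2, and the 3 mural genes detected in at least 8 cells had a median of -0.21, with 0 of 3 at -0.5 or less. The stromal list had a median of 0.14 with Mt2, and Pdgfrb, a growth factor receptor of stromal and mural cells, was its only gene past 0.5 in either direction (-0.65). Of all genes 3.06% had -0.5 or less with Mt2. The mean of 14 stromal markers was 4.88 in cell 13, the lowest of all cells, 7.06 in cell 5 and 9.91 in cell 11, the highest. The part of these markers in the level of Mt2 was not tested. The number of rows at a cell's lowest value, which stands for breadth, ran between 930 and 1974 with a median of 1385, and its correlation was -0.08 with Mt2, -0.13 with Trf and -0.04 with Ftl1.

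The correlates of Trf came next. In the same set of genes 211 had a correlation of 0.5 or more with Trf (5.34%) and 128 had one of -0.5 or less (3.24%), and the median was 0.02. The genes most like Trf were Ivd, an enzyme of leucine breakdown (0.85), Pxmp4, a peroxisomal membrane protein (0.84), Col15a1, a collagen of the basement membrane zone (0.81), and Ntf3, the growth factor neurotrophin 3 (0.80). They were followed by Gadl1, a decarboxylase (0.79), Ggt5, a gamma-glutamyltransferase that acts on leukotrienes and glutathione conjugates (0.78), Cxcl13, a chemokine for B cells (0.77), and Lrp1, an endocytic receptor that takes up hemopexin with heme among many ligands (0.76). Of these 8 genes 5 had their lowest level in cell 13. Pxmp4 was detected in 8 cells, Ivd and Ntf3 in 9 each, Ggt5 in 10 and Col15a1 in 12. These genes met the bar of 8 cells only with the cells high in Trf, so the choice of genes favours them.

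In the 5 cells high in Trf, Pxmp4 lay between 4.31 and 8.42, against 0.06 to 3.74 in the other 10 cells. Ivd lay between 3.74 and 5.60 in cells high in Trf and between 0.16 and 3.66 in the other cells, which do not overlap but nearly touch. Pxmp4 and Ivd were the only 2 of 3948 genes (0.0507%) whose levels in all 5 cells lay above those in all 10 others. Pxmp4 was detected in 8 cells and Ivd in 9, so both met the bar of 8 cells only with the cells high in Trf. A gene detected in these 5 cells alone could not be counted. Nae1, a subunit of the enzyme that activates NEDD8, was the only gene (0.0253%) with all 5 below, at 1.16 to 5.33 in cells high in Trf and 5.33 to 8.22 in the others, so the ranges nearly touch. It was named after its values were seen. Since Trf itself chose these cells, the counts describe how far they share anything else among genes that met this bar.

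Cxcl13 had one of the widest ranges. Among cells high in Trf, cell 3 had 13.69, cell 15 had 12.09, cell 10 had 10.86, cell 4 had 8.75 and cell 12 had 8.05. In the other cells it was highest at 8.48 in cell 1, 8.13 in cell 5 and 7.91 in cell 7, and lowest at 1.36 in cell 11. The groups overlapped, because cells 1 and 5 exceeded cell 12. Ntf3 was 6.59 to 7.96 in the 5 cells high in Trf, but cells 6, 9 and 14, with Trf at 3.42 or less, reached 7.19, 7.76 and 7.22. Lrp1 was 4.17 to 6.15 in cells high in Trf and 0.95 to 5.64 in the others.

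**Figure D4:**
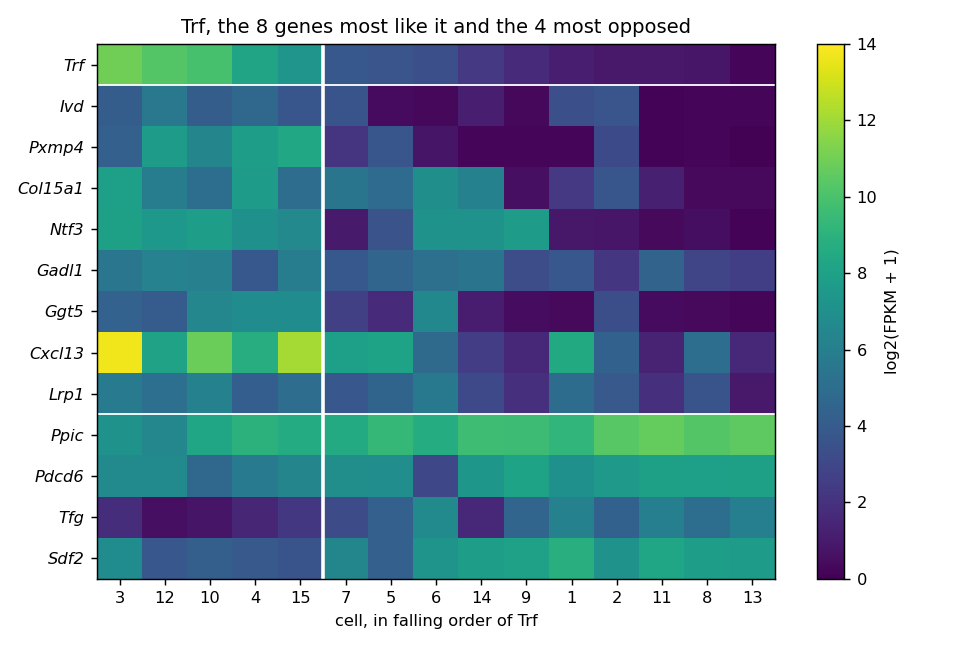
Heat map of log2(FPKM + 1) for Trf, the 8 genes most like it and the 4 most opposed, with cells in falling order of Trf from left to right and a white line after the 5 cells high in Trf. Pxmp4 and Ivd are above their other cells in all 5, Cxcl13 peaks at 13.69 in cell 3, and Ppic grows brighter toward the right.

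The strongest correlation of any gene with any of the 3 members was negative. Ppic, the prolyl isomerase cyclophilin C of the secretory pathway, had -0.92 with Trf (Pearson -0.88), and -0.93 to -0.90 when any 1 cell was left out. Ppic was picked as the most extreme gene over these same cells, so this range does not test the link. Of the cells high in Trf, cell 3 had 7.17 of Ppic, cell 12 had 6.46, cell 10 had 8.25, cell 4 had 8.97 and cell 15 had 8.62. Of the others, cell 7 with 8.56 and cell 6 with 8.65 were lowest, while cell 11 had 10.68, cell 13 had 10.50, cell 2 had 10.37 and cell 8 had 10.27. The groups overlapped only between 8.56 and 8.97. Pdcd6, a calcium-binding protein (-0.78), Tfg, which acts at exit sites of the endoplasmic reticulum (-0.76), and Sdf2, a protein of the endoplasmic reticulum (-0.76), came next.

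Fat cell genes were set against Trf in the same way. Of 25 preadipocyte and adipocyte genes 20 had a row and 11 were detected in at least 8 cells. Their median correlation with Trf was 0.31, against 0.02 over all genes, with 2 of 11 at 0.5 or more (5.34% of all genes) and 0 at -0.5 or less (3.24% of all genes). These 2 were Ggt5, which met the bar of 8 cells only with the cells high in Trf, and Lpl, lipoprotein lipase (0.54). Lpl was 8.07 to 10.81 in the 5 cells high in Trf, against 1.19 in cell 9 to 10.30 in cell 6 among the others, so cell 6 had much Lpl with little Trf. Fabp4, a fatty acid carrier, had 0.28, with 13.69 both in cell 4, which was high in Trf, and in cell 13, which was lowest. The common scale gives 13.69 to the top row of every cell, so this equality means that Fabp4 ranked first in both. The mean of the list was 3.86 to 6.72 in the cells high in Trf and 2.78 to 5.40 in the others, and its correlation with Trf was 0.48. Listed genes detected in fewer than 8 cells have a part in this mean but not in the counts. Cfd was 0.64 to 6.65 in cells high in Trf and 0.00 to 2.02 in the others. Car3 was 0.00 to 12.98 in cells high in Trf and 0.00 to 7.09 in the others. Both pairs of ranges overlapped, and a highest level can rest on a single cell. Pparg and Acaca had their highest level in the others. Pparg was 0.00 to 5.50 in cells high in Trf and 0.00 to 9.29 in the others, and Acaca was 0.05 to 0.29 and 0.00 to 8.96. For the mural markers the median was 0.43 over the 3 detected in at least 8 cells, with 0 of 3 at 0.5 or more, and the mean of all 5 had 0.42 with Trf. Adipoq and Plin1, markers of mature adipocytes, are not analysed here. Other fat cell genes near Trf were Col4a1 (0.44) and Col4a2 (0.40), collagens of the basement membrane. Vim, the intermediate filament vimentin, had -0.71, the only one of 14 stromal genes past 0.5 in either direction.

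Markers of other tissues that make transferrin could be read only in part. The hepatocyte list had 0 of 6 genes with a row, and of 5 oligodendrocyte and Schwann genes 1 had a row, Mbp, with 0.38. Of 9 macrophage genes 1 had a row, Csf1r, at 0.00 to 0.36 in the cells high in Trf and 0.00 to 6.39 in the others. Of 5 endothelial genes 2 had a row, with a mean of 0.10 to 1.67 in cells high in Trf and 0.00 to 5.48 in the others. The 5 mural markers averaged 1.29 to 2.37 in cells high in Trf and 0.39 to 8.72 in the others.

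Genes of iron and copper are counted here against the 5.34% of all genes at 0.5 or more with Trf. In the iron uptake list Lrp1 was the only one of 6 other genes past 0.5. The others were Steap4, a metalloreductase (0.19), Scara5, a receptor for ferritin light chain (0.19), Mcoln1 (0.16), Hfe, which binds the transferrin receptor (0.09), and the iron transporter Slc11a2 (-0.06). Of 9 genes of iron and heme control 1 passed, Hmox1 (0.63), and it was 1.63 to 4.67 in cells high in Trf against 0.35 to 5.47 in the others, with the top in cell 9. Of 16 iron-sulphur genes 1 passed, Glrx5, a mitochondrial glutaredoxin of cluster assembly (0.64), and the median of the list was 0.30. Of 13 copper genes 3 passed, with a list median of 0.21. A single gene is the smallest count above 0 in lists of 6 to 16, so these single genes are not read as a result about their lists. The 3 copper genes were Aoc3, a copper amine oxidase known from adipocytes and smooth muscle (0.74), Loxl1, a lysyl oxidase (0.72), and Slc25a3, a mitochondrial carrier of phosphate and copper (0.55).

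Aoc3 was 5.04 to 6.87 in the 5 cells high in Trf and 0.07 to 5.63 in the others, where cells 5 (5.63) and 13 (4.97), the cells with mural markers, were highest. Cp had only 0.24 with Trf. Alas2, an enzyme of heme synthesis in red cells, had 0.70, but it is the only one of 6 erythroid genes with a row. Its gene lies within the annotated span of Apex2 on the opposite strand, and no label says whether strand was used in counting, so its level is uncertain. Of the metal transporters for zinc none passed 0.5 with Trf, where 5.34% of all genes did, and Slc39a1 came closest (0.49).

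The glucocorticoid and stress list was also set against Trf. Its median was -0.02 over 24 genes, with 3 at 0.5 or more and 1 at -0.5 or less, against 5.34% and 3.24% of all genes. The 3 were Pdk4, a kinase that restrains pyruvate oxidation (0.62), Sult1a1, a sulphotransferase (0.55), and Zbtb16, a zinc finger factor (0.53). Fkbp5 was the opposed one (-0.56). Of the immediate early genes past 0.5 with Mt2, Egr1 had 0.44 with Trf, while Ier2 (-0.03), Fos (-0.04), Jun (-0.14) and Atf3 (-0.27) were near 0 or below.

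Ribosomal protein genes were looked at after their values were seen. Of 80 cytosolic ribosomal protein genes 32 (40%) had 0.5 or more with Trf, against 5.34% of all genes, and their median was 0.46. The same 80 genes had a median of 0.08 with Mt2 and -0.14 with Ftl1, with 2 and 1 of them at 0.5 or more. The 32 genes encode parts of 1 complex and do not count as independent observations.

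Ftl1 differed from the other members in its narrow range, so its order over cells rests on small differences. In the same set of genes 103 had a correlation of 0.5 or more with it (2.61%) and 103 had one of -0.5 or less (2.61%). Most like it were Pigk, an enzyme that attaches GPI anchors (0.86), Wdr83, a scaffold protein (0.84), Adamtsl5, a matrix protein (0.78), and Abi3bp, another matrix protein (0.75). Next came the lysosomal peptidase Dpp7 (0.73), the cysteine protease Ctso (0.69), Casp12, a caspase (0.69), and C1s1, a protease of the complement pathway (0.68). Pigk was 8.48 in cell 15, 7.21 in cell 2 and 7.19 in cell 11, the 3 cells highest in Ftl1, against 0.76 in cell 12 and 0.18 in cell 9, the 2 lowest. Wdr83 was at 0.00 or 0.03 in 6 cells, so its rank order has many near ties. Of the 8 genes most like Ftl1, 5 had their lowest level in cell 13.

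Most opposed to Ftl1 were Gnb2l1, the ribosomal scaffold also called RACK1 (-0.86), Ap2a2, an adaptor of clathrin-coated vesicles (-0.84), Glipr2 (-0.79) and Rbm3, a cold-inducible RNA-binding protein (-0.75). Gnb2l1 was 11.30 in cell 12, where Ftl1 was lowest, and 8.44 in cell 15, where Ftl1 was highest. These 2 levels were the ends of the range of Gnb2l1 over the 15 cells.

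Among iron genes, Ncoa4, the receptor that carries ferritin to lysosomes, had 0.45 with Ftl1, and it was 5.83 in cell 15, 4.64 in cell 1 and 4.12 in cell 11, against 0.11 in cell 3 at the low end. Pcbp1 and Pcbp2, which deliver iron to ferritin, had -0.10 and -0.18. Of the 4 other genes of iron storage and export none reached 0.5. Of 9 iron and heme control genes 1 did, Urod, an enzyme of heme synthesis (0.54), and the heme oxygenases differed, with Hmox2 at 0.42 and Hmox1 at 0.11. Scara5, the receptor for ferritin light chain, had 0.23 with Ftl1. Of 13 copper genes Cox19, which acts in assembly of cytochrome oxidase, was the one past 0.5, with -0.55. Catalase (Cat), which breaks down hydrogen peroxide, had 0.58, the only one of 16 antioxidant genes past 0.5. Of all genes 2.61% passed 0.5 with Ftl1 in each direction, so these single genes are not read as a result about their lists.

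**Figure D5:**
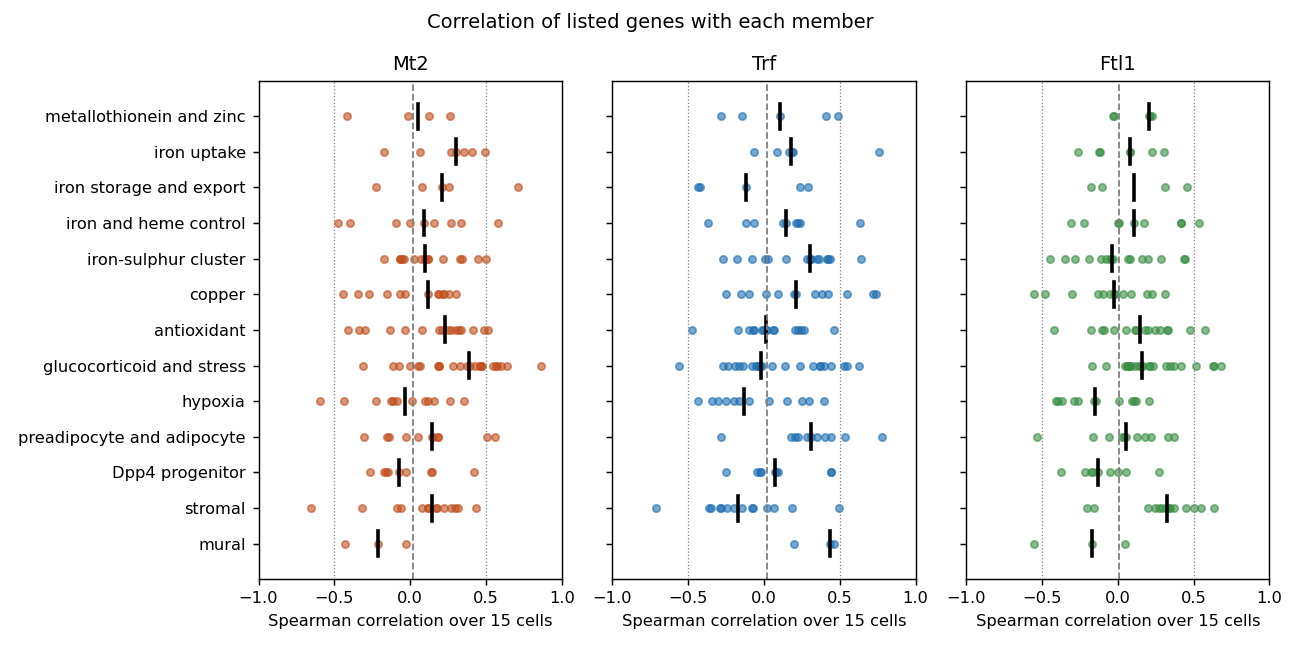
Spearman correlation over 15 cells of each listed gene detected in at least 8 cells with Mt2, Trf and Ftl1, with 1 point per gene, the list's median as a black bar, the median of all genes as a dashed line and -0.5 and 0.5 as dotted lines. The glucocorticoid and stress list has its median at 0.39 for Mt2, the preadipocyte and adipocyte list at 0.31 for Trf and the stromal list at 0.33 for Ftl1.

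Stromal genes leaned toward Ftl1. All 14 stromal genes had a row and were detected in at least 8 cells, and their median correlation with Ftl1 was 0.33, against 0.01 over all genes, with 3 of 14 at 0.5 or more and 0 at -0.5 or less (2.61% of all genes in each direction). The 3 were Mmp2, a matrix metalloproteinase (0.63), Serping1, the inhibitor of complement C1 (0.55), and Lum, a proteoglycan (0.50). Mmp2 was 10.38 in cell 2 and 10.15 in cell 11 and was 0.73 in cell 13. Cell 13 also had the lowest mean of the stromal markers (4.88), and the correlations of this list were not computed without it. The same list had medians of 0.14 with Mt2 and -0.17 with Trf. Of the 24 glucocorticoid and stress genes 4 passed 0.5 with Ftl1 and none passed -0.5, and the median was 0.16. They were Hspa1b, an inducible heat shock protein (0.68), Sgk1, a kinase induced by glucocorticoids (0.63), Glul, glutamine synthetase (0.63), and Nr3c1, the glucocorticoid receptor (0.52).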

How the data were processed

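Each cell gave 1 library, per the labels' protocols, with cDNA by the SMART-Seq v4 3′ DE kit and libraries by Nextera XT. TopHat2, Cufflinks and GRCm38 are named per the submitters' processing notes. Versions are not given in the sources used. The authors' deposited values are log2(FPKM + 1), quantile-normalized over cells. Both points were inferred from the values, which end at 13.69 in every cell and whose sorted values above 0.2 differ by at most 0.0354 between cells, and neither is written in a label. Such values fix the overall distribution in each cell, so a level is in effect a rank, and depth is unknown.

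The members and lists were chosen with earlier results of these data known. Spearman correlations were computed over 15 cells (scipy 1.17.1, tested on simulated data) for genes at 1 FPKM or more in at least 8 cells. Named genes are the 8 most like and 4 most opposed to each member among named protein-coding genes other than ribosomal ones, and, from 18 lists, up to 4 members detected in most cells and those past 0.6 in either direction. Other listed genes are named where they passed 0.5 or share a role with a member, which was decided with their values in view. Promoters are from RefSeq (GRCm38.p6), and transcripts and gene positions from GENCODE M21. Alternatives covered thresholds, scaling, the correlation measure and left-out cells. No test over cells was made.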

Additional observations from a re-analysis of the deposited data

How the results depend on the processing

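Of 184 alternative values, 174 were close to the value reported and 10 moved further. Close meant a difference below the SD over cells for levels. For correlations it meant below the standard error from leaving out 1 cell at a time, and for counts at most 1.5 times. Many alternatives left out 1 cell, and for correlations that standard error comes from these same values. Such alternatives were nearly bound to be close, so 174 of 184 does not measure how firm the results are. Detection of Trf at 1% of its own highest value was met by 5 cells in place of 11. Among genes detected in all cells, 39 had a correlation of 0.5 or more with Mt2, 75 with Trf and 24 with Ftl1, where fewer genes were tested. For Ftl1 the count of 103 became 174 among genes detected in at least 3 cells and 192 without cells 1, 11 and 14, the cells with most rows at their lowest value; the cause was not tested. Alternatives chosen after seeing the data gave a correlation of Mt2 with Trf of 0.116 without the 2 cells farthest from the median of Mt2 and 0.123 without cells 5, 11 and 13. Pearson's measure gave 0.704 for Mt2 with Egr1 and -0.876 for Trf with Ppic. Leaving out 1 cell at a time gave 0.273 (without cell 13) to 0.579 (without cell 2) for Mt2 with Trf, 0.0342 to 0.391 for Mt2 with Ftl1, and -0.240 to 0.0440 for Trf with Ftl1, whose sign therefore depends on single cells. The median level ran between 11.62 and 11.75 for Mt2, 2.88 and 3.56 for Trf, and 11.13 and 11.22 for Ftl1. No paired analysis was possible because all cells form 1 group. Unknown depth, 15 cells and no named animals limit every value.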

Other observations

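Oxygen-regulated and progenitor genes were not described above. Of 21 hypoxia genes 17 had a row and 12 were detected in at least 8 cells, with a median correlation of -0.04 with Mt2, -0.13 with Trf and -0.15 with Ftl1, and Hif1a with Mt2 was the only value past 0.5. Of 15 Dpp4 progenitor genes, which mark cells of the interstitial layer of fat, 9 were detected in at least 8 cells and 0 passed 0.5 with any of the 3 members in either direction. Their medians were -0.07 with Mt2, 0.07 with Trf and -0.13 with Ftl1. Of all genes between 2.61% and 5.34% passed 0.5 in a given direction with a given member. The counts for both lists lie near this background and are not read as a result about the lists. Apoe, an apolipoprotein that binds lipids, had 0.56 with Mt2, and was 13.26 in cell 3, 12.09 in cell 12 and 11.53 in cell 2, against 2.04 in cell 13. Plin2, a coat protein of lipid droplets, had -0.53 with Ftl1, and was 12.47 in cell 13 and 0.67 in cell 8. Txnip, an inhibitor of thioredoxin, had -0.41 with Mt2, and was highest at 13.26 in cell 6 and lowest at 7.12 in cell 7. Gpx3, a secreted glutathione peroxidase, had 0.46 with Trf, and was 2.41 in cell 13 and at least 8.90 in all the other cells.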
